A study of Homo sapiens with 4 samples.

Results

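The genes that make, sense and export cholesterol and make fatty acids were followed in Reh-6-MPR cells, through 34 genes named for their place in these pathways. They were chosen with earlier results of these data known, so the counts below describe these genes and are not tests. All 34 were found among the 29833 genes of the deposited table, and 33 of them were among the 12750 genes whose mean FPKM over the libraries was at least 1. They comprise 17 enzymes of cholesterol synthesis, 1 sterol carrier (STARD4), 5 genes that sense sterols and control the pathway, 8 genes of fatty acid synthesis, and 3 genes (ABCA1, ABCG1 and MYLIP) that lower the cholesterol content of a cell. Genes of sterol synthesis that are not among these 34 and not in the wider lists below were not analysed here.

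Reh is an established line from human B-cell acute lymphoblastic leukemia. Reh-6-MPR is a single line derived from it that resists 6-mercaptopurine (6-MP), a thiopurine drug of maintenance therapy, and the labels give its genotype as wild type. All cells came from this line and were kept for 48 h with PBS as vehicle, with histidine at 4 mM, with 6-MP at 1.0 μg/mL, or with histidine and 6-MP at these concentrations, called the combined treatment. Each treatment has 1 poly(A) RNA library, so the differences below have no replicates behind them and are given without p-values.

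Cells match the supply of cholesterol to demand by transcription. When sterols in the endoplasmic reticulum run low, SCAP carries the SREBP transcription factors to the Golgi, where they are cut and released to the nucleus. There SREBP-2 mainly drives cholesterol synthesis and uptake genes, and SREBP-1 mainly drives fatty acid synthesis genes. When sterols are plentiful, INSIG proteins hold SCAP in the endoplasmic reticulum, while oxidised sterols activate LXR, a nuclear receptor that drives the export pumps ABCA1 and ABCG1 and MYLIP. Lymphoblasts, like other dividing cells, use both pathways to build membranes.

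FPKM scales the reads of a gene to its length and to the reads of the library, so levels of different genes can be set side by side on this scale. Read numbers were worked back from the steps between low FPKM values and came out whole for all 34 genes, within 5.73e-07 of a read. The libraries held 12899122 reads with the combined treatment, the lowest, to 15486376 with histidine, the highest. The combined library also had the most genes above 0, 25443 against 23635 to 23978. A log2 fold change below is a difference of log2(FPKM + 1), a scale that shrinks changes at low FPKM, and a gene is called where it reaches an absolute value of 1. A log2 read ratio is taken from the reads scaled to library size and carries an exact Clopper-Pearson 95% interval. These intervals cover counting error only and compare libraries, not treatments. In bulk RNA, fewer cells of a kind and less RNA per cell cannot be told apart. The median log2 fold change of the combined treatment against vehicle over all genes tested was 0.13, and scaling by the median ratio over these genes moved it to 0. Of the B-lineage markers, all 9 listed reached 1 FPKM in at least 1 library, and their summed FPKM was 1239 to 1313. The 4 myeloid markers summed to 27.0 to 31.2 FPKM in the other libraries and to 43.7 with the combined treatment, most of it from MPO, and their part in the results below was not tested. The 2 erythroid markers analysed here stayed at or below 0.0495 FPKM.

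The RefSeq promoter table (GRCh38.p14) has an entry for 30 of the 34 genes. Promoters are shown for the 6 of them called lower against vehicle (HMGCS1, MSMO1, DHCR7, INSIG1, ACLY and FADS2), for the SREBP genes SREBF1 and SREBF2, and for ABCA1, the efflux gene with the largest log2 fold change. FDFT1, SQLE, FASN and ABCG1 have no entry in it. Each line holds the 250 bases before the RefSeq start, written 5′ to 3′ on the strand of the gene, with the matches to 3 motifs in capitals. The motifs are TCACNCCAC, the core of a sterol regulatory element that SREBP binds, CCAAT, the box bound by NF-Y, a frequent partner of SREBP, and CACGTG, an E-box. Both strands were searched, so CCAAT also appears as ATTGG, and no match overlapped another. The windows shown lie as follows, with HMGCS1 at chr5:43313413-43313662 on the minus strand, MSMO1 at chr4:165327419-165327668 on the plus strand, DHCR7 at chr11:71448394-71448643 on the minus strand and INSIG1 at chr7:155297628-155297877 on the plus strand. The remaining windows are SREBF1 at chr17:17836987-17837236 on the minus strand, SREBF2 at chr22:41832855-41833104 on the plus strand, ACLY at chr17:41919023-41919272 on the minus strand, FADS2 at chr11:61815953-61816202 on the plus strand, and ABCA1 at chr9:104928156-104928405 on the minus strand.
HMGCS1: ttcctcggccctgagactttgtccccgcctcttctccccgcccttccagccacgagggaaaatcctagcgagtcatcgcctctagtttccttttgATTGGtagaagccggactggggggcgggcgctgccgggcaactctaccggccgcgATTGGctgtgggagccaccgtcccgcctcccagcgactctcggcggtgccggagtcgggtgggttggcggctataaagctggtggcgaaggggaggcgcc
MSMO1: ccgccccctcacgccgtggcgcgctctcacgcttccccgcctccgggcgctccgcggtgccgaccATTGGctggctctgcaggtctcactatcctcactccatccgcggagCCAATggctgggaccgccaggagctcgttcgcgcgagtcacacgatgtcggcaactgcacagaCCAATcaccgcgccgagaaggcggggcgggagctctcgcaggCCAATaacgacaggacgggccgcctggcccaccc
DHCR7: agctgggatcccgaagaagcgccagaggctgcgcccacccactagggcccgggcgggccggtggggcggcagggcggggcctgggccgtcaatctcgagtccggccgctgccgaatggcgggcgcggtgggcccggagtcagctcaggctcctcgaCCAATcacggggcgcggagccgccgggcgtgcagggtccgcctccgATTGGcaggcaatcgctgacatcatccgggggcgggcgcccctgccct
INSIG1: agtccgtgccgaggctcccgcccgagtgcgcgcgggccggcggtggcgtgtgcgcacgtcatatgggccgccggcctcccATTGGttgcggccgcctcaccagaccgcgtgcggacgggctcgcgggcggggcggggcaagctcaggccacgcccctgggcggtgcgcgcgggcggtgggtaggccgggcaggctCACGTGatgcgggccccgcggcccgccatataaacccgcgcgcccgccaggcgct
SREBF1: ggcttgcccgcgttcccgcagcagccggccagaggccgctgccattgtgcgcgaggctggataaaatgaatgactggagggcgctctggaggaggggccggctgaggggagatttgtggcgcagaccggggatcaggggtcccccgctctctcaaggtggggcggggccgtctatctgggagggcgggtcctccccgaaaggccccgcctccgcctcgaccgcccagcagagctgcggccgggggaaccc
SREBF2: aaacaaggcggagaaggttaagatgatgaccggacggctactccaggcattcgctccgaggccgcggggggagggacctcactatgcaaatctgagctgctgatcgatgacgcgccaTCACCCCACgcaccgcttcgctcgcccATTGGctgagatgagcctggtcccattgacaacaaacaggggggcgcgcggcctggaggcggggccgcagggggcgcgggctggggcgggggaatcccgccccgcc
ACLY: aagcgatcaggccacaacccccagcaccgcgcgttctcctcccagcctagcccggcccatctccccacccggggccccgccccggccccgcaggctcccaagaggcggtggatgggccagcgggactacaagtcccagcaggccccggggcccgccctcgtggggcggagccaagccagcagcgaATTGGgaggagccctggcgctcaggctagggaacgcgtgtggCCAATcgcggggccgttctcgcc
FADS2: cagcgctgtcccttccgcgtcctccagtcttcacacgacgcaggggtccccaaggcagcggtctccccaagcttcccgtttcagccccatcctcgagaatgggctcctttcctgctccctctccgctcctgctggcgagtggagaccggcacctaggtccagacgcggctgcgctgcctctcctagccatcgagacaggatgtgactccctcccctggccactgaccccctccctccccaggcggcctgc
ABCA1: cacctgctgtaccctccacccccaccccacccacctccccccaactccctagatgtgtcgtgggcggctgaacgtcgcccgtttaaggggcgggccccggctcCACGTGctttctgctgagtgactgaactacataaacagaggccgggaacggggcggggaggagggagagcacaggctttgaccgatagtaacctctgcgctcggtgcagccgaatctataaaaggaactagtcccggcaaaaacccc

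CCAAT was found in 21 of the 30 promoters (70.0%) and in 37.0% of all 27305 genes of the promoter table, whether tested here or not. Of the cholesterol synthesis genes, 13 of 15 held it. MSMO1 has 4 matches in its window and HMGCS1, DHCR7 and ACLY have 2 each, while the windows of FADS2 and SREBF1 hold none of the 3 motifs. TCACNCCAC was in 1 of the 30 promoters, that of SREBF2, where it spans bases -133 to -125 before the start, and in 1.09% of all genes. CACGTG was in 4 promoters (SC5D, INSIG1, SCAP and ABCA1), against 7.73% of all genes. Among the 19 genes with a promoter whose read interval lay below vehicle with the combined treatment, 14 held CCAAT (73.7%), and among the other 11, 7 did (63.6%). A gene with several starts in the table was counted once, if any of its windows held the motif, and the first window is shown for HMGCS1, DHCR7, ACLY and FADS2, which have 2. These matches describe letters and not binding.

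With the combined treatment, most genes of synthesis were lower and the genes of efflux were higher than in the other 3 libraries. Of the 33 genes tested, 8 were called lower against vehicle, namely HMGCS1, SQLE, MSMO1, DHCR7, INSIG1, ACLY, FASN and FADS2, where 1.51% of all genes tested were called lower. None of the 33 was called higher, where 5.01% of all genes were. Against 6-MP alone 7 of the 33 were called lower, with a background of 1.2%, and against histidine alone 9 were, with a background of 1.4%. None was called higher against either (background 4.82% against 6-MP and 4.15% against histidine). These 3 comparisons share the library of the combined treatment. ACLY missed the threshold against 6-MP, at -0.99, and SREBF1 passed it against histidine, at -1.01. Histidine alone and 6-MP alone gave no call in either direction among the 33 genes. The background was 0.533% lower and 0.8% higher for histidine against vehicle, and 0.722% lower and 0.463% higher for 6-MP against vehicle.

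**Figure D1:**
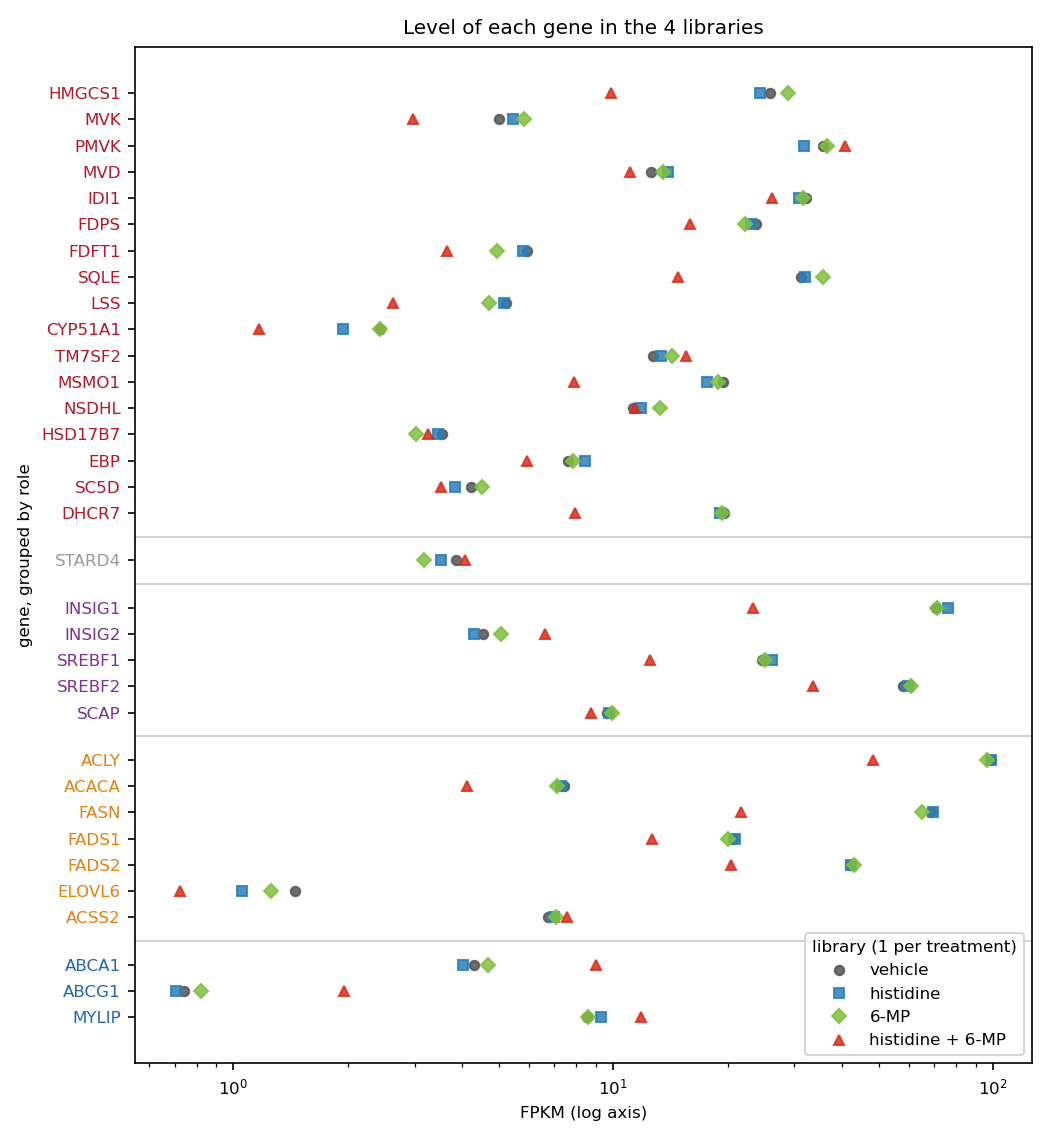
FPKM of the 33 genes tested in each of the 4 libraries, on a log axis, with genes grouped by role and 1 marker per library. The marker of the combined treatment lies left of the other 3 for 23 genes and right of them for 8, among them ABCA1, ABCG1 and MYLIP.

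In the absence of replicates, the other 3 libraries were used as a measure of spread. Each had a different treatment, so their range mixes any treatment effect with differences between libraries. Across vehicle, histidine and 6-MP, the range of a gene on the log2(FPKM + 1) scale had a median of 0.13 over the 33 genes and was at most 0.25. The combined treatment lay below these 3 libraries by more than their range in 22 of the 33 genes, where 19.2% of all genes tested did. It lay above them by more than their range in 5 genes, INSIG2, ACSS2, ABCA1, ABCG1 and MYLIP, where 37.1% of all genes did. It was the lowest of the 4 libraries in 23 genes (background 28.8%) and the highest in 8 (background 53.8%). A difference of at least 1 from each of the other 3 libraries was reached by 7 genes on the lower side (background 0.698%) and by none on the higher side (background 2.7%). From the reads, 22 of the 33 intervals against vehicle lay below 0 (background 20.8%), 6 lay above 0 (background 42.7%) and 5 included 0.

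**Figure D2:**
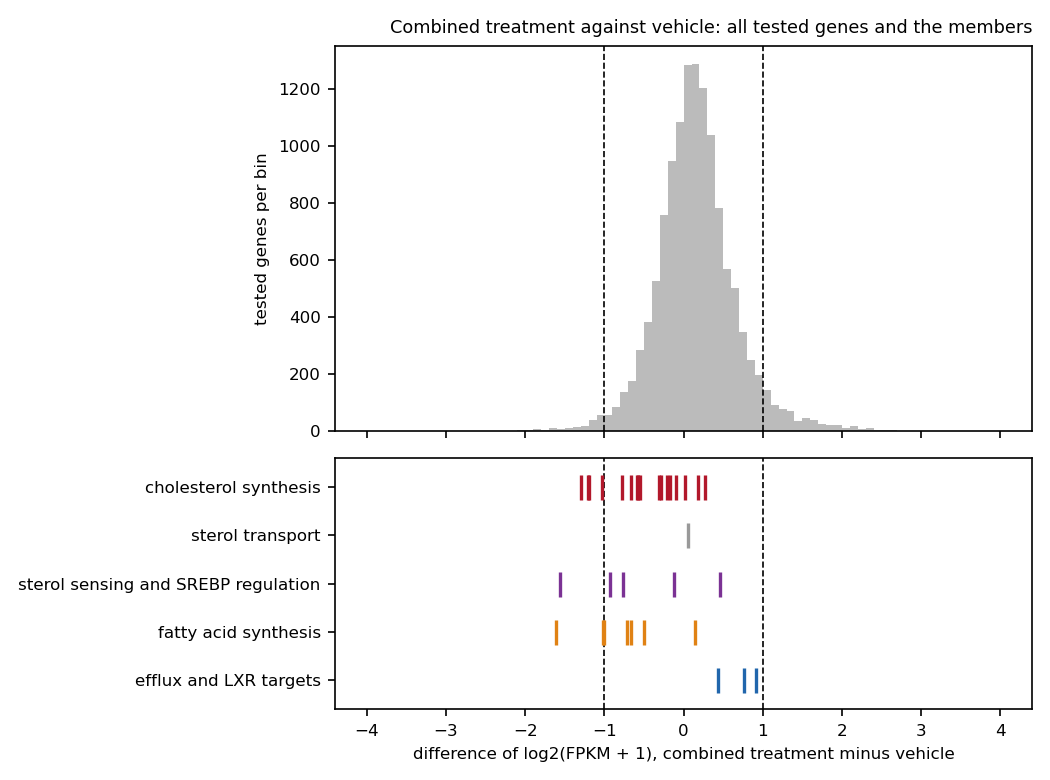
Number of genes per bin of 0.1 in the log2 fold change of the combined treatment against vehicle for the 12750 genes tested (upper panel), with the 33 genes as ticks by role below it and dashed lines at the threshold of 1 in either direction. All genes centre on a median of 0.13, the cholesterol synthesis genes on -0.55, the fatty acid synthesis genes on -0.72 and the efflux genes on 0.76.

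Cholesterol synthesis opens with HMGCS1, which makes HMG-CoA from acetyl groups (ENSG00000112972, GRCh38 chromosome 5, 43287470 to 43313512). The vehicle library had 25.8 FPKM, histidine 24.4, 6-MP 28.9 and the combined treatment 9.87, on 2447, 2499, 2938 and 844 reads. The combined library was the lowest, at 38.3% of vehicle. The log2 fold change was -1.30, and the log2 read ratio was -1.39 (95% interval -1.50 to -1.27). Over the 17 enzymes of this pathway the median log2 fold change was -0.55, with 4 called lower (background 1.51%). Of the 17 read intervals, 13 lay below 0 (background 20.8%).

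The mevalonate steps that follow differed among themselves. MVK, the first kinase of the pathway, was at 5.00, 5.43, 5.83 and 2.98 FPKM (vehicle, histidine, 6-MP and combined treatment, the order used below), with a log2 fold change of -0.59. PMVK, the second kinase, was at 35.7, 31.8, 36.4 and 40.8 FPKM, highest with the combined treatment, though its log2 fold change of 0.19 became -0.050 after median-ratio scaling over all genes above 0. MVD, the decarboxylase that makes the isoprene unit, was at 12.6, 13.9, 13.5 and 11.0 FPKM. A log2 fold change of -0.17 was far from the threshold. IDI1, which isomerises that unit, was at 32.2, 30.8, 31.5 and 26.2 FPKM, a log2 fold change of -0.29. FDPS, which joins units into farnesyl diphosphate, stood at 23.8, 23.0, 22.2 and 15.9 FPKM, a log2 fold change of -0.55. Only HMGCS1 of these 6 genes was called, while the read intervals of all but PMVK lay below vehicle.

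The next enzymes commit the chain to sterols. FDFT1, squalene synthase, was at 5.93, 5.80, 4.94 and 3.64 FPKM, a log2 fold change of -0.58. SQLE, the squalene epoxidase that is a rate-limiting step of the pathway, was at 31.2, 32.0, 35.6 and 14.8 FPKM, on 1926, 2136, 2353 and 824 reads. It was called lower, at 47.5% of vehicle and a log2 fold change of -1.03. LSS, which closes the rings to lanosterol, was at 5.21, 5.16, 4.72 and 2.63 FPKM. Its log2 fold change was -0.77 and its log2 read ratio -0.98 (95% interval -1.21 to -0.76), so that the added pseudocount of 1 weighs on it.

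Of the enzymes that trim lanosterol to cholesterol, MSMO1 and DHCR7 were called lower. MSMO1, a methylsterol oxidase (chromosome 4, 165327667 to 165343164), was at 19.4, 17.6, 18.8 and 7.88 FPKM, a log2 fold change of -1.20 and 40.6% of vehicle. DHCR7, which makes cholesterol in the last step of 1 branch (chromosome 11, 71428193 to 71452868), was at 19.6, 19.1, 19.3 and 7.95 FPKM, also a log2 fold change of -1.20. In both genes the other 3 libraries lay close together and the combined library stood apart. CYP51A1, the lanosterol demethylase, was at 2.43, 1.94, 2.44 and 1.16 FPKM on 123, 106, 132 and 53 reads. At -0.67 on the log2 scale it was not called, while its log2 read ratio was -1.06 with a wide 95% interval of -1.56 to -0.59.

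The remaining enzymes of this stretch differed less. EBP, a sterol isomerase, had 5.92 FPKM with the combined treatment against 7.59 with vehicle, and SC5D, a sterol desaturase, had 3.52 against 4.23, log2 fold changes of -0.31 and -0.21. HSD17B7, a ketosteroid reductase, was at 3.55, 3.46, 3.02 and 3.26 FPKM, inside the range of the other 3 libraries. NSDHL, a sterol dehydrogenase, was likewise inside that range, at 11.3, 11.8, 13.3 and 11.4 FPKM. Its log2 fold change of 0.013 became -0.13 after median-ratio scaling. TM7SF2, a sterol reductase, was highest with the combined treatment, at 15.5 FPKM against 12.7, 13.4 and 14.3, a log2 fold change of 0.27. The 17 enzymes summed to 258, 252, 267 and 185 FPKM in the same order, the last of which is 71.5% of vehicle.

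**Figure D3:**
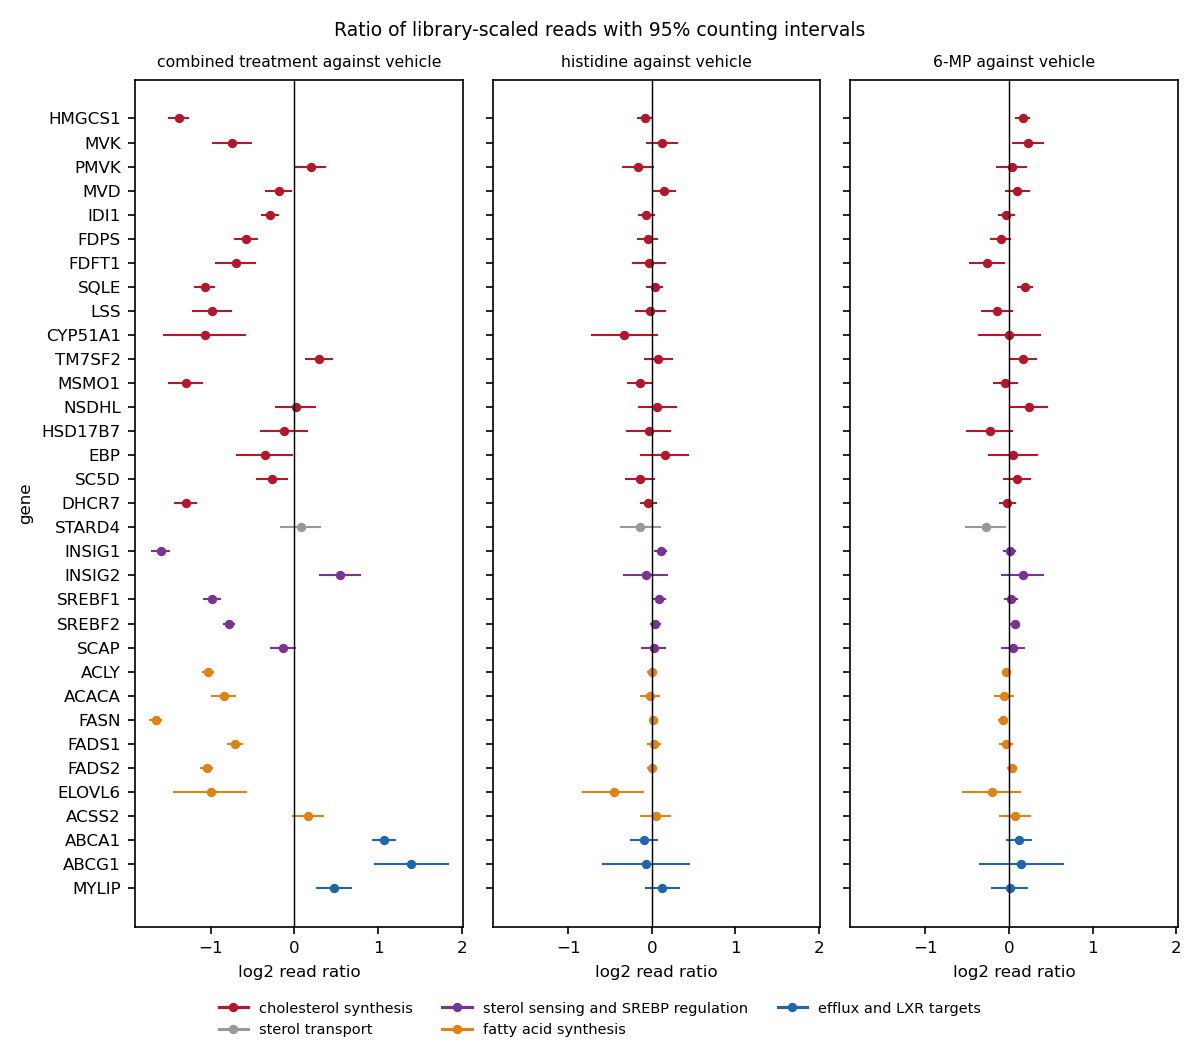
Log2 ratio of library-scaled reads for the 33 genes, with exact 95% counting intervals, for the combined treatment, histidine alone and 6-MP alone, each against the same vehicle library. In the left panel 22 intervals lie below 0 and 6 above, while 28 of 33 include 0 with histidine alone and 24 of 33 with 6-MP alone.

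INSIG1, which holds the SREBP and SCAP complex in the endoplasmic reticulum and is itself a target of SREBP, was at a lower share of its vehicle level than any tested gene of the set except FASN (ENSG00000186480, chromosome 7, 155297776 to 155310235). The levels were 70.6 FPKM (vehicle), 75.9 (histidine), 71.1 (6-MP) and 23.3 (combined treatment), on 3688, 4292, 3979 and 1096 reads. The combined library was at 33.0% of vehicle. The log2 fold change was -1.56, which ranked it 44 from the lowest of the 12750 genes tested, and the log2 read ratio was -1.60 (95% interval -1.70 to -1.50). INSIG2, its paralog, was at 4.53, 4.30, 5.07 and 6.59 FPKM, highest with the combined treatment, with a log2 fold change of 0.46 and a read ratio of 0.54 (95% interval 0.30 to 0.78). The ratio of INSIG1 to INSIG2 in FPKM was therefore 15.6, 17.7 and 14.03 in the other libraries and 3.53 with the combined treatment.

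The genes for the SREBP factors were both lower, and neither was called against vehicle. SREBF1, which encodes SREBP-1, was at 24.7, 26.2, 25.1 and 12.5 FPKM, a log2 fold change of -0.93. SREBF2, which encodes SREBP-2 and carries the sterol regulatory element core shown above, was at 58.0, 59.8, 60.8 and 33.7 FPKM, a log2 fold change of -0.77 on 6274 reads with vehicle and 3280 with the combined treatment. For both genes the combined library lay outside the narrow range of the other 3. The ratio of SREBF2 to SREBF1 in FPKM was 2.28 to 2.42 in the other libraries and 2.70 with the combined treatment. SCAP, the escort of SREBP, was at 9.61, 9.77, 9.92 and 8.72 FPKM, and its read interval against vehicle included 0. STARD4, a soluble sterol carrier, was at 3.86, 3.51, 3.18 and 4.06 FPKM. Its log2 fold change of 0.060 against vehicle became -0.065 after median-ratio scaling, and its read interval against vehicle included 0.

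Of the 7 fatty acid synthesis genes tested, 3 were called lower (ACLY, FASN and FADS2, background 1.51%) and 6 had read intervals below vehicle (background 20.8%). The 8 genes of the group summed to 246, 247, 240 and 115 FPKM, the combined treatment being at 47.0% of vehicle, and the median log2 fold change of the 7 tested was -0.72. FASN, the synthase that builds palmitate (ENSG00000169710, chromosome 17, 82078338 to 82098294), was at 68.7, 69.4, 65.1 and 21.7 FPKM, on 9167, 10023, 9306 and 2615 reads. It was at 31.7% of vehicle with the combined treatment, the lowest such share of the 33 genes. The log2 fold change was -1.62, rank 39 from the lowest of all genes tested, and the log2 read ratio was -1.66 (95% interval -1.72 to -1.60). ACLY, which supplies cytosolic acetyl-CoA and had the highest FPKM of the 34 genes, was at 98.6, 98.9, 96.4 and 48.2 FPKM. The log2 fold change of -1.02 lay just past the threshold. ACACA, the carboxylase that makes malonyl-CoA, was at 7.40, 7.28, 7.11 and 4.11 FPKM, a log2 fold change of -0.72.

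The desaturases FADS1 and FADS2, which make polyunsaturated fatty acids, lie together on chromosome 11. FADS2 was called lower, at 42.1, 42.2, 43.1 and 20.4 FPKM and a log2 fold change of -1.01. FADS1 was at 20.7, 21.0, 20.1 and 12.6 FPKM, a log2 fold change of -0.67. The annotated spans of these genes share 29692 bases on opposite strands, and FADS2 shares 4259 bases with FEN1 on the same strand. FEN1 was at 97.5, 96.8, 91.8 and 93.3 FPKM, a log2 fold change of -0.064. The strand setting of the counting is not given in the sources used here, so FADS1 and FADS2 may hold reads of each other, and the same holds for DHCR7 and the opposite-strand transcript ENSG00000254682, which was at 13.6 FPKM with vehicle and 8.44 with the combined treatment.

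ELOVL6, which lengthens palmitate, was a low gene, at 1.45, 1.06, 1.25 and 0.725 FPKM on 151, 119, 140 and 68 reads, and its log2 fold change was -0.51. ACSS2, which makes acetyl-CoA from acetate, was at 6.75, 6.96, 7.08 and 7.55 FPKM, and its read interval against vehicle included 0. The log2 fold change of 0.14 became -0.071 after median-ratio scaling over all genes above 0. SCD, the stearoyl desaturase, had 2 reads in the histidine library and 1 read in each of the other libraries. These are at or under the floor of 3 reads, so no fold is given and SCD is not among the 33 genes tested.

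The 3 efflux genes were all higher with the combined treatment. ABCA1, the pump that loads cholesterol onto apolipoprotein A-I (ENSG00000165029, chromosome 9, 104781006 to 104928155), was at 4.30, 4.03, 4.67 and 9.02 FPKM, on 698, 708, 812 and 1320 reads. It was at 210% of vehicle, with a log2 fold change of 0.92 and a log2 read ratio of 1.07 (95% interval 0.94 to 1.20). ABCG1, which exports sterols to high density lipoprotein, was at 0.742, 0.707, 0.820 and 1.95 FPKM on 65, 67, 77 and 154 reads. The log2 fold change was 0.76, and the log2 read ratio was 1.39 with a 95% interval of 0.97 to 1.84. MYLIP, a ubiquitin ligase that degrades lipoprotein receptors, was at 8.53, 9.31, 8.57 and 11.8 FPKM, with a log2 fold change of 0.43. The combined treatment was above the other 3 libraries in all 3 genes, as it was in 53.8% of all genes tested. It was above them by more than their range in all 3, as in 37.1% of all genes tested. All 3 read intervals lay above 0 against each of the other libraries. Such intervals were found in 42.7% of all genes tested against vehicle, 42.2% against 6-MP and 41.2% against histidine. None of the 3 efflux genes reached a log2 fold change of 1, and ABCA1 ranked 784 from the highest of the 12750 genes. Both values use the log2(FPKM + 1) scale, which shrinks changes at low FPKM. The log2 read ratios of ABCA1 and ABCG1 were above 1, with intervals that reached below it.

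Set side by side, most synthesis genes were lower and the 3 efflux genes higher within the same library. The synthesis genes PMVK, TM7SF2 and ACSS2 were also highest there. FASN had the lowest share of vehicle in the set and ABCA1 the largest log2 fold change of the efflux genes. As a share of vehicle ABCG1 was higher, at 263% against 210% for ABCA1. The ratio of FASN to ABCA1 joins genes far apart in the set and does not stand for the other genes. In FPKM it was 16.0, 17.2, 13.9 and 2.41 in the same order of libraries. The summed FPKM of the 3 efflux genes was 13.6 with vehicle and 22.8 with the combined treatment, 168% of vehicle, while that of the 5 sensing and control genes was 167 and 84.7. The median log2 fold change was -0.59 over the 30 tested genes other than the efflux genes and 0.76 over the 3 efflux genes, around 0.13 for all genes tested.

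The treatments given singly left the genes near vehicle. The medians over the 33 genes were -0.013 for histidine and 0.025 for 6-MP on the log2 scale, and none of the 33 was further than 0.25 from vehicle. With histidine alone the read intervals of HMGCS1 and ELOVL6 lay below 0 and those of MVD, INSIG1 and SREBF1 above it (background 8.74% below and 13% above). With 6-MP alone those of FDFT1, STARD4 and FASN lay below 0 and those of HMGCS1, MVK, SQLE, TM7SF2, NSDHL and SREBF2 above it (background 7.95% below and 10% above). HMGCS1 and SQLE, called lower with the combined treatment, had log2 read ratios of 0.16 and 0.19 with 6-MP alone.

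Departure from additivity sets the log2 fold change of the combined treatment beside the sum of the fold changes of histidine and 6-MP, all against vehicle, and is their difference. It was at most -1 in 8 of the 33 genes (background 1.91%), namely HMGCS1, SQLE, MSMO1, DHCR7, INSIG1, SREBF1, FASN and FADS2, and reached 1 in none (background 4.85%). INSIG1 had the lowest value, -1.67, followed by FASN at -1.55 and HMGCS1 at -1.38. ABCA1 had the highest, 0.90, and ABCG1 had 0.73. The median over the 33 genes was -0.41, against 0.11 over all genes tested. This value uses all 4 libraries and has no error of its own.

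Neighbouring pathways were counted by calls against vehicle and by the genes lowest or highest with the combined treatment. Over all genes tested 1.51% were called lower and 5.01% higher against vehicle, so few calls or none would be usual in lists this small. Among 23 other genes of sterol and lipid synthesis, 1 was called lower against vehicle and none higher, with a median log2 fold change of -0.15. The lower one was MID1IP1, which activates the carboxylase ACACA, with 63.4, 59.8, 55.0 and 29.7 FPKM and a log2 fold change of -1.07. AACS, which activates acetoacetate for lipid synthesis, was at 0.766, 0.793, 0.988 and 1.80 FPKM, a log2 fold change of 0.67. Of the 23 genes, 13 were lowest of the 4 libraries with the combined treatment (background 28.8%) and 7 highest (background 53.8%). Of 14 genes for processing and degradation of the SREBP complex none was called, and the median was -0.064. With the combined treatment 7 of them were lowest and 4 highest. SYVN1, a ubiquitin ligase of the endoplasmic reticulum, and SPRING1, a cofactor of the protease that cuts SREBP, had log2 fold changes of 0.53 and 0.48.

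RXRA, the partner receptor of LXR, was at 3.61, 3.73, 3.44 and 5.44 FPKM, a log2 fold change of 0.48. Of 7 genes for cholesterol esters and intracellular transport none was called (background 1.51% lower and 5.01% higher), with a median of 0.34. STARD3 and NPC2, which both move cholesterol in late endosomes, had 0.52 and 0.48. With the combined treatment 6 of the 7 were highest of the 4 libraries (background 53.8%) and 1 lowest (background 28.8%). Of 15 genes of fatty acid oxidation none was called (background 1.51% lower and 5.01% higher), with a median of 0.10. Of these 15, 9 were highest and 3 lowest with the combined treatment. ETFA, which passes electrons from the oxidation of fatty acids, had -0.35 and HADH, an oxidation enzyme, had 0.34. Beside the median of 0.13 over all genes tested, the fatty acid oxidation genes were near the middle of the distribution.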

How the data were processed

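The authors had 4 libraries of Reh-6-MPR cells, 1 per treatment, made with a stranded poly(A) kit and deposited FPKM values per gene on GRCh38. The submitters' processing notes name Trimmomatic, HISAT2, HTSeq and Cufflinks, without a counting strand. FPKM depends on library composition and on how shared reads are counted.

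Only genes reaching an average of 1 FPKM were tested, fold changes were differences of log2(FPKM + 1), and no test was run with 1 library per treatment. Reads were recovered as whole multiples of the FPKM step with gene lengths of GENCODE 29, and ratios carry exact Clopper-Pearson 95% intervals. The recovery of library sizes and reads, and the calls of the combined treatment against vehicle, were tested on simulated data. The intervals, departures from additivity, alternative scalings and motif search were not. Genes and lists were chosen with earlier results of these data known. All 34 genes are named by role, and of each wider list the 2 with the largest absolute log2 fold change against vehicle. Some wider list genes and the T cell markers were not analysed here. The count and median of the LXR list and 1 of its genes are not reported here. Alternatives were a pseudocount of 0.1, no filter, an average of at least 5 FPKM, median-ratio and TPM scaling, protein-coding genes only, and thresholds of 0.5 and 1.5. Median-ratio scaling was first run over all genes above 0. The version over the genes tested was put in its place, and the first kept as an added alternative, after seeing the data. The software was scipy 1.17.1, numpy 2.4.6 and pandas 2.3.3 under Python 3.11.15, with matplotlib 3.10.9 for figures.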

Additional observations from a re-analysis of the deposited data

Results flagged for a closer look

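In 3 genes the difference made by histidine had opposite directions without and with 6-MP, with both read intervals excluding 0. MVD had a log2 read ratio of 0.14 for histidine against vehicle and -0.29 for the combined treatment against 6-MP. INSIG1 had 0.11 and -1.61 in the same comparisons. SREBF1 had 0.088 and -1.01. The share of all genes tested that meet this rule was not counted, so the 3 genes cannot be called unusual. Each value rests on 1 library per treatment and the interval covers counting error only, so the difference between the directions was not tested.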

How the results depend on the processing

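With thresholds of 0.5 and 1.5, the genes called lower numbered 18 and 2 against vehicle, 15 and 2 against 6-MP, and 16 and 2 against histidine. The shares of all genes tested were 7.37% and 0.392%, 6.88% and 0.290%, and 7.53% and 0.392% in the same order. Genes called higher against vehicle numbered 2 with a pseudocount of 0.1, with TPM scaling and at a threshold of 0.5, where 9.25%, 13.6% and 19.7% of all genes tested were called higher. The median of the cholesterol synthesis genes was -0.77 with median-ratio scaling over all genes above 0. That of the fatty acid synthesis genes was -0.91 with a pseudocount of 0.1, -0.86 with a filter at an average of 5 FPKM, and -0.84 and -0.91 with median-ratio scaling over the genes tested and over all genes above 0. That of the efflux genes was 1.05 with a pseudocount of 0.1 and 1.06 with TPM scaling. A smaller pseudocount and the larger TPM values weigh less on low genes, and fewer genes are tested at a higher filter. No called value changed sign. Median-ratio scaling over the genes tested changed the sign of 2 log2 fold changes against vehicle and of 2 departures from additivity, and over all genes above 0 it changed 4 and 3, none of them called. Genes called lower and higher over all genes tested went from 1.51% and 5.01% to 2.16% and 3.63% with median-ratio scaling over the genes tested, 2.68% and 3.10% with that over all genes above 0, 3.68% and 13.6% with TPM scaling, 2.62% and 9.25% with a pseudocount of 0.1, 0.992% and 3.18% without a filter, 1.19% and 2.92% with a filter at 5 FPKM, and 0.760% and 3.46% with protein-coding genes only. No paired analysis was possible because there is only 1 library per treatment, and leaving out a replicate did not apply. Depth limits CYP51A1, ELOVL6, ABCG1 and SCD most.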
